A study of Mus musculus with 12 samples.

Results

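Stefin A genes encode small cytosolic inhibitors of papain-like cysteine proteases, the cathepsins B, H, L and S among them, and belong to the cystatin superfamily. They bind the active site of the protease reversibly and carry no secretion signal, unlike cystatin C, the secreted inhibitor encoded by Cst3. In mice the stefin A gene has multiplied into a run of similar copies on chromosome 16, and its products are known from neutrophils, other myeloid cells and epidermis. In dendritic cells (DCs) the target proteases work in the endosomes and lysosomes in which protein antigen and the class II invariant chain are cut.

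The genes described here are the rows of the count table for Stfa1, Stfa2, Stfa2l1, Stfa3, BC100530 and Gm5416, which is 6 of the 55401 genes in the table. They were chosen by name, with differences between the lines already known, so values between the lines are given as a description and without p. All 6 passed the expression filter, which left 14079 genes for testing. Because the copies resemble one another, the summed count of the 6 genes is given beside the single genes.

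RNA was sequenced from Sp37A3 cells, an immature DC line from the spleen of C57BL/6 mice, grown with GM-CSF and M-CSF. CtrV cells carry an empty lentiviral CRISPR vector and are labelled as expressing Siglec-E, an inhibitory receptor for sialic acid. EKO cells carry the same vector with a guide against Siglece, are labelled as knockout, and are a pool of selected single-cell clones. Both lines were either left unpulsed or pulsed with ovalbumin (OVA), and all 4 groups were stimulated with LPS for 24 h, so no group shows cells without LPS. Each group had 3 libraries (R1 to R3).

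Library totals lay between 27116201 and 39698572 counts. Siglece itself was not lower but higher in the EKO libraries. It stood at 155 ± 6.13 CPM, counts scaled to the normalised library size (SD, n = 3), in unpulsed CtrV cells and 208 ± 36.7 in unpulsed EKO-labelled cells, and at 156 ± 6.30 and 195 ± 18.0 with OVA. The log2 fold change of Siglece was 0.41 (SE 0.08, adjusted p = 0.00261, edgeR) without OVA and 0.31 (SE 0.08, adjusted p = 0.0106, edgeR) with OVA. An edited gene can still be transcribed, so the transcript level does not check the genotype, and the libraries are called EKO-labelled throughout. R1 stood apart from R2 and R3 in both EKO-labelled groups, since the chi-square divided by its degrees of freedom, over tested genes, was 26.2 to 45.3 against R1 but 7.50 and 11.8 between R2 and R3. The CtrV groups were uneven too. Without OVA the value was 25.35 and 23.35 against R3 but 4.85 between R1 and R2. With OVA it was 14.5 and 21.3 against R1 but 7.97 between R2 and R3. All 9 DC markers examined were expressed, with a summed level of 20390 to 22910 CPM over the 12 libraries. Most of this sum was Cd74 (mean 17260 CPM in unpulsed CtrV cells), so it does not show whether single markers were alike. With OVA 4 of the 9 rose and 1 fell in the EKO-labelled line, and without OVA 3 rose and 1 fell (edgeR). Of all tested genes 25.1% rose and 21.9% fell with OVA, and 24.5% and 21.9% without OVA. Irf8 had a log2 fold change of 1.35 (SE 0.15) and Itgax -0.27 (SE 0.06) with OVA.

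The 6 genes lie between chr16:36156811 and chr16:36455392 of GRCm38, mixed with other stefin A-like genes, pseudogenes and small nuclear RNA genes. Stfa2l1 (chr16:36156811-36161953), Gm5416 (chr16:36210403-36217788) and Stfa1 (chr16:36276951-36285373) are annotated on the plus strand. BC100530 (chr16:36359382-36367748), Stfa2 (chr16:36403992-36408457) and Stfa3 (chr16:36450537-36455392) are on the minus strand. Each is a protein-coding gene with 3 exon blocks in GENCODE, and the exons sum to between 294 bases for Gm5416 and 790 bases for BC100530.

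How alike the copies are decides how far a read can be given to one of them, so the coding sequence from base 61 to base 150 of Stfa2 is printed for all 6 genes. Capitals mark the bases that differ from Stfa2 in the alignment.
Stfa2: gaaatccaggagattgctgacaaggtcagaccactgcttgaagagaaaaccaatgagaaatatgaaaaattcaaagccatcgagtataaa
Stfa2l1: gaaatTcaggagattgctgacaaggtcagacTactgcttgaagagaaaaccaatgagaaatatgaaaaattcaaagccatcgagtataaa
Stfa3: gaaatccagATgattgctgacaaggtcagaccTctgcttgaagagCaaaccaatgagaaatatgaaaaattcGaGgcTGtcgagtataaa
Gm5416: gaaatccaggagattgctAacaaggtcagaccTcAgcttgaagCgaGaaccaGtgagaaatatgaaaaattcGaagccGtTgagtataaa
BC100530: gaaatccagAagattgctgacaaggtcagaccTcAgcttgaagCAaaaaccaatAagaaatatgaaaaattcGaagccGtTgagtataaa
Stfa1: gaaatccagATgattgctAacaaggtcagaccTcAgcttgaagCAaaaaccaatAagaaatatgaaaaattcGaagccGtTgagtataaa
Stfa2l1 differed from Stfa2 at 2 of these 90 bases, Stfa3 at 8, Gm5416 and BC100530 at 9, and Stfa1 at 11. The sequences were spliced from the GRCm38 genome with GENCODE coding exons.

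Over the whole coding sequence, Stfa2 and Stfa2l1 were identical at 96.5% of 312 bases. Stfa3 matched Stfa2 at 81.1%, and BC100530 and Gm5416 matched each other at 88.4% of 294 bases. Of all stretches of 50 bases in the annotated exons, 15.9% of those of Stfa2 and 24.6% of those of Stfa2l1 occurred in another gene, mostly in each other. The share was 22.5% for Stfa1 and 36.2% for BC100530, and it was 0 for Stfa3 and Gm5416. For stretches of 100 bases, a share above 0 was left for Stfa1 (5.07%) and BC100530 (15.6%). The read length is not given in the sources used here, and a read that fitted several places equally well was kept at a single location. Counts of Stfa2, Stfa2l1, Stfa1 and BC100530 are therefore uncertain. A gene's own share does not bound this error where its partner is far more abundant. Stfa2l1 held 14.7% of the stretches of 50 bases of the abundant Stfa2, and BC100530 held 19.4% of those of Stfa1. How much of the counts and folds of Stfa2l1 and BC100530 came from reads of Stfa2 and Stfa1 was not tested. Of the exon bases of BC100530, 18.4% overlap the antisense gene Gm15845, and whether counting used the strand is not stated. Both strands were searched, so the shares of BC100530 include this overlap, which is the same place in the genome and not another copy. Gm15845 held 6.08% of its stretches of 100 bases.

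Stfa2 supplied most stefin A reads in both lines. Its level in R1, R2 and R3 was 353, 399.9 and 485 CPM in unpulsed CtrV cells and 1388, 1228 and 1214 CPM in unpulsed EKO-labelled cells. With OVA it was 335, 416 and 425 CPM in CtrV cells and 1111, 1466 and 1180 CPM in EKO-labelled cells. Every EKO-labelled library therefore lay above every CtrV library. The log2 fold change between the lines was 1.64 (SE 0.13) without OVA and 1.68 (SE 0.13) with OVA, which is 3.12-fold and 3.20-fold on the linear scale.

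Stfa2l1, the copy nearest to Stfa2 in sequence, was measured at 8.46, 7.45 and 9.72 CPM in unpulsed CtrV cells and 41.8, 25.3 and 24.6 CPM in unpulsed EKO-labelled cells. In OVA-pulsed cells the values were 7.62, 8.97 and 8.52 CPM against 34.1, 31.8 and 26.5 CPM. The lines did not overlap, and R1 was the highest EKO-labelled library in both conditions. The log2 fold change was 1.81 (SE 0.18) without OVA and 1.87 (SE 0.18) with OVA. Leaving out both EKO-labelled R1 libraries gave 1.51 without OVA.

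Gm5416, whose RefSeq symbol is Csta3, had the largest fold of the 6 genes with OVA, and without OVA too except when CtrV R3 was left out, which put BC100530 at a log2 fold change of 2.92. It stood at 2.43, 2.86 and 2.85 CPM in unpulsed CtrV cells and 19.8, 14.9 and 12.7 CPM in unpulsed EKO-labelled cells. With OVA it stood at 2.43, 2.60 and 2.19 CPM and at 17.3, 16.9 and 15.4 CPM. The lowest EKO-labelled library (12.7 CPM) was far above the highest CtrV library (2.86 CPM). The log2 fold change was 2.52 (SE 0.14) without OVA and 2.78 (SE 0.14) with OVA, and it was 2.31 without OVA when both EKO-labelled R1 libraries were left out.

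Stfa1 was measured at 2.71, 2.61 and 3.20 CPM in unpulsed CtrV cells and at 14.2, 5.84 and 7.28 CPM in unpulsed EKO-labelled cells. OVA-pulsed CtrV cells had 2.30, 2.33 and 2.09 CPM, and OVA-pulsed EKO-labelled cells had 11.7, 9.91 and 6.95 CPM. The lines did not overlap, but the EKO-labelled libraries were spread widely, with R1 on top. The log2 fold change was 1.62 (SE 0.25) without OVA and 2.08 (SE 0.25) with OVA, and it was 1.20 without OVA when both EKO-labelled R1 libraries were left out.

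Stfa3 and BC100530 rested on few reads. Stfa3 had 7, 8 and 7 counts in unpulsed CtrV cells, 33, 19 and 19 in unpulsed EKO-labelled cells, 8, 11 and 4 in OVA-pulsed CtrV cells and 45, 37 and 32 in OVA-pulsed EKO-labelled cells. Its log2 fold change between the lines was 1.60 (SE 0.34) without OVA and 2.28 (SE 0.31) with OVA. Without EKO-labelled R1 of the unpulsed cells the former was 1.23, and without CtrV R2 of the OVA-pulsed cells the latter was 2.65.

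BC100530 had 2, 4 and 7 counts in unpulsed CtrV cells, 33, 15 and 18 in unpulsed EKO-labelled cells, 12, 6 and 11 in OVA-pulsed CtrV cells and 43, 20 and 13 in OVA-pulsed EKO-labelled cells. In CPM the lowest EKO-labelled library (0.400) was just above the highest CtrV library (0.365). The log2 fold change was 2.24 (SE 0.50) without OVA and 1.32 (SE 0.41) with OVA. The former ranged from 1.52 without CtrV R1 to 2.92 without CtrV R3, so single libraries decided its size.

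The summed count of the 6 genes was 367, 413 and 502 CPM in unpulsed CtrV cells and 1466, 1275 and 1260 CPM in unpulsed EKO-labelled cells. With OVA it was 348, 431 and 438 CPM against 1176, 1526 and 1230 CPM. The sum was 3.15-fold higher in EKO-labelled cells without OVA (log2 fold change 1.66, SE 0.13) and 3.24-fold higher with OVA (1.70, SE 0.13). Fewer cells with these transcripts and less transcript per cell cannot be told apart in bulk RNA.

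All 6 genes passed an adjusted p of 0.05 as higher in EKO-labelled cells in both conditions. Of all tested genes, 24.5% were called higher in this way without OVA and 25.1% with OVA, and 21.9% were called lower in each condition (edgeR, quasi-likelihood test). Likewise, every EKO-labelled library lay above every CtrV library over all 12 libraries for 6 of the 6 genes, and for 18.9% of all tested genes. Since the choice of the genes rests on this contrast, nothing is read from these counts. The median log2 fold change of the 6 genes was 1.73 without OVA and 1.98 with OVA, beside a median of 0.00 over all tested genes in each. Stfa3 and BC100530 met the expression filter through EKO-labelled libraries alone, since their highest CtrV libraries had 0.332 and 0.365 CPM. Their place in the counts and medians of the 6 genes thus depends on the line in which they are higher.

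**Figure D1:**
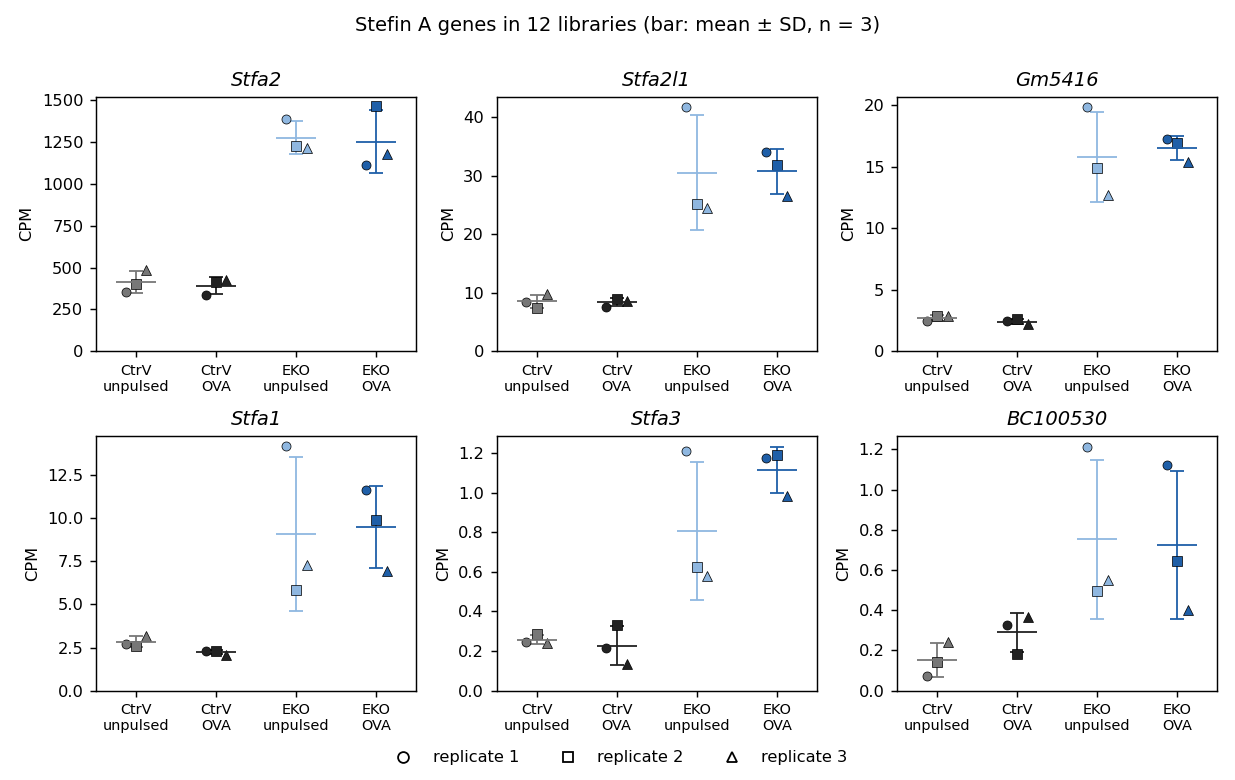
CPM of the 6 stefin A genes (one panel each, linear axis from 0) in the 12 libraries, with symbols for replicates 1 to 3 and a horizontal bar with whiskers for the mean ± SD of each group. The CtrV libraries lie below the EKO-labelled libraries in every panel, narrowly in BC100530 (0.365 against 0.400 CPM), and the unpulsed EKO-labelled replicate 1 is the highest library of its group in every panel.

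Divided by exon length, the order of the levels was the same in both lines for the upper 3 genes. In unpulsed CtrV cells Stfa2 stood at 877 ± 142 CPM per kb, Stfa2l1 at 20.4 ± 2.72 and Gm5416 at 9.24 ± 0.836 (SD, n = 3). Stfa1 followed at 4.00 ± 0.438, Stfa3 at 0.626 ± 0.0605 and BC100530 at 0.192 ± 0.108. In unpulsed EKO-labelled cells Stfa2 stood at 2711 ± 205 CPM per kb, followed by Stfa2l1 (72.9 ± 23.3) and Gm5416 (53.7 ± 12.4), whose ranges over the 3 libraries overlapped. Stfa1 was at 12.8 ± 6.29, Stfa3 at 1.96 ± 0.851 and BC100530 at 0.952 ± 0.504 there, and the ranges of Stfa3 and BC100530 overlapped, with Stfa3 above BC100530 in each of the 3 libraries. Exon lengths are those of GENCODE, and Gm5416 is annotated with its coding bases alone.

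Because Stfa2 dominated the sum, shares of the sum show how the copies changed relative to one another. Stfa2 made up 96.2% to 97.0% of the summed count in the 6 CtrV libraries and 94.4% to 96.4% in the 6 EKO-labelled libraries. Gm5416 made up at most 0.699% in CtrV libraries and 1.01% to 1.47% in EKO-labelled libraries, with no overlap. The shares of Stfa2l1 overlapped between the lines (1.80% to 2.30% and 1.95% to 2.90%), as did those of Stfa1 (0.477% to 0.739% and 0.458% to 0.992%). The summed fold is thus close to that of Stfa2.

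Pulsing with OVA was not part of the choice of the genes, and it was tested in each line. None of the 6 genes passed, and none had an unadjusted p under 0.05 in either line. In CtrV cells the log2 fold changes with OVA were -0.08 (SE 0.12) for Stfa2, -0.03 (SE 0.20) for Stfa2l1, -0.18 (SE 0.17) for Gm5416 and -0.36 (SE 0.29) for Stfa1. In EKO-labelled cells they were -0.04 (SE 0.12), 0.03 (SE 0.16), 0.08 (SE 0.11) and 0.10 (SE 0.22). The largest values belonged to the genes with the fewest counts, BC100530 in CtrV cells (0.88, SE 0.59) and Stfa3 in EKO-labelled cells (0.49, SE 0.25).

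The adjusted p was 1 for each of the 6 genes in both lines (edgeR). Across the whole table pulsing called 0 of 14079 genes (0%) in either line with edgeR, and DESeq2 and limma voom also called 0. At an unadjusted p under 0.05 edgeR gave 231 genes in CtrV and 394 genes in EKO-labelled cells, and 0 of the 6 stefin A genes among them. With an SE of 0.12 the estimate for Stfa2 was narrow, whereas for BC100530 in CtrV cells a change of 1 on the log2 scale was not detectable at this depth.

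**Figure D2:**
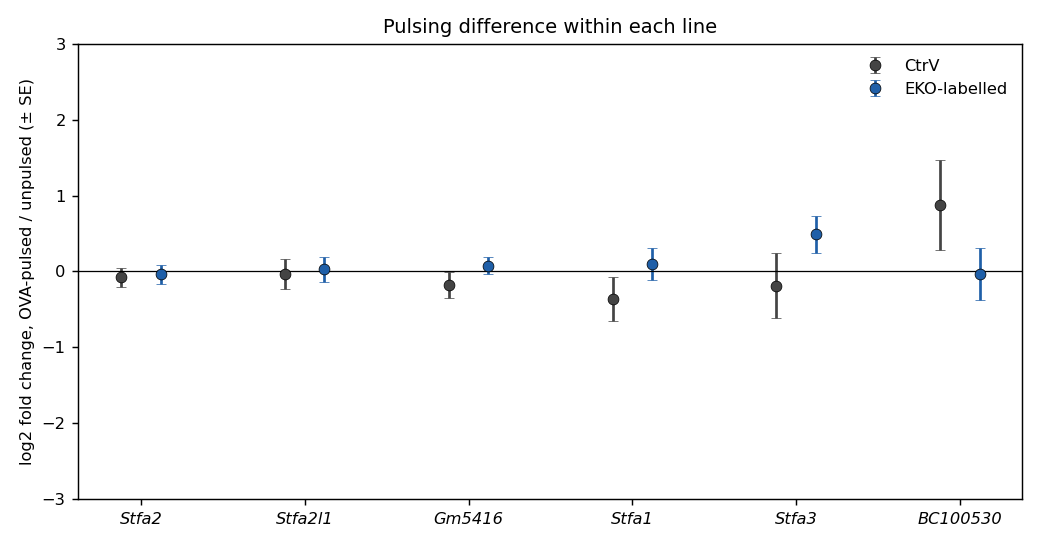
Log2 fold change of OVA-pulsed against unpulsed cells (vertical axis) for the 6 genes in CtrV (dark) and EKO-labelled (blue) cells, with points for the edgeR estimate and whiskers for ± 1 SE. The points of Stfa2 lie at -0.08 and -0.04, and the widest whiskers belong to BC100530 in CtrV cells (0.88, SE 0.59).

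Whether the difference between the lines depended on pulsing was tested with an interaction term. The term was 0.04 (SE 0.18) for Stfa2, 0.06 (SE 0.26) for Stfa2l1 and 0.26 (SE 0.20) for Gm5416 on the log2 scale. It was 0.46 (SE 0.36) for Stfa1, 0.68 (SE 0.50) for Stfa3 and -0.91 (SE 0.69) for BC100530. None passed (adjusted p = 1 for each, edgeR), and 0% of all tested genes did. The line contrasts of both conditions share no library, but the interaction and the pulsing contrasts are built from the same 12 libraries.

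Between the outermost of the 6 genes, together with Csta1 just outside, lie 24 further rows of the table, of which 7 passed the filter. Most of the rest are small nuclear RNA genes without a count. Without OVA the EKO-labelled cells had 3 of the 7 at a higher level and 0 at a lower level, and with OVA 3 and 1. Gm7260, among these 3 in both conditions, met the filter through EKO-labelled libraries alone. The shares over all tested genes were 24.5% and 21.9% without OVA, and 25.1% and 21.9% with OVA.

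Gm5483 (RefSeq Cstdc4), a protein-coding stefin A-like gene, also rose. It was measured at 173, 185 and 216 CPM in unpulsed CtrV cells and 795, 440.5 and 396 CPM in unpulsed EKO-labelled cells. With OVA the values were 166, 183 and 171 CPM against 597, 590.0 and 475 CPM, so the lines did not overlap. Its log2 fold change was 1.46 (SE 0.21; adjusted p = 0.000227, edgeR) without OVA and 1.67 (SE 0.21; adjusted p = 8.38e-05) with OVA.

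2010005H15Rik (RefSeq Csta2), whose coding sequence matched that of Gm5483 at 96.9%, differed less. It stood at 390 ± 47.4 CPM in unpulsed CtrV cells and 545 ± 161 in unpulsed EKO-labelled cells, and at 352 ± 15.7 and 545 ± 57.1 with OVA (SD, n = 3). The log2 fold change was 0.46 (SE 0.16; adjusted p = 0.0377, edgeR) without OVA and 0.62 (SE 0.16; adjusted p = 0.00887) with OVA. In unpulsed cells its lowest EKO-labelled library (443 CPM) was below its highest CtrV library (444 CPM). The call without OVA was lost under 9 of 21 alternatives, among them DESeq2, upper-quartile normalization, the 6 unpulsed libraries alone, and leaving out any 1 of 5 libraries (CtrV R1 or R2 or EKO-labelled R1 of the unpulsed cells, CtrV R3 or EKO-labelled R1 of the OVA-pulsed cells). Per kb of exon 2010005H15Rik stood second to Stfa2 in CtrV cells, at 610 ± 74.2 CPM per kb without OVA.

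The pseudogene Gm7260 rose with a log2 fold change of 1.48 (SE 0.25) without OVA and 1.71 (SE 0.25) with OVA. It met the expression filter through EKO-labelled libraries alone, since its highest CtrV library had 0.680 CPM, so no p is given. BC117090, which matched BC100530 at 95.2% of coding bases, did not pass in either condition (log2 fold change -0.05, SE 0.26, and 0.50, SE 0.25; adjusted p = 0.886 and 0.124, edgeR). The pseudogene Gm6815 fell by 0.54 on the log2 scale with OVA (SE 0.14, adjusted p = 0.00732, edgeR), a call that DESeq2 did not make. The copies of the run thus did not share 1 fold. These genes can share reads with one another and with the 6 genes above. The share of stretches of 50 bases that occurred in another gene was 14.2% for Gm5483, 20.4% for 2010005H15Rik and 33.7% for BC117090.

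**Figure D3:**
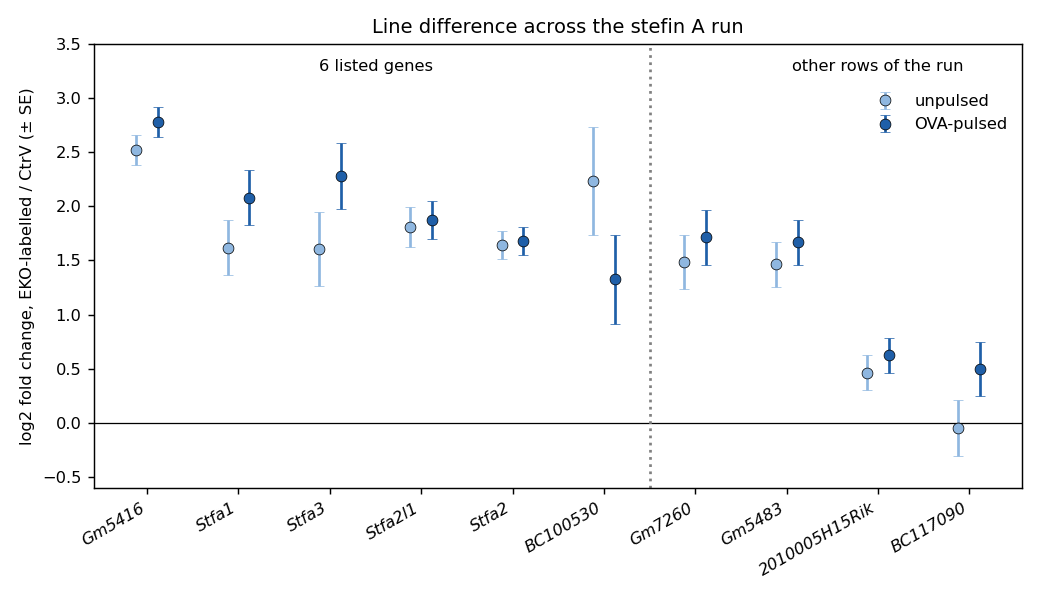
Log2 fold change of EKO-labelled against CtrV cells (vertical axis) for the 6 stefin A genes, left of the dotted line, and for 4 other rows of the run, in unpulsed (light) and OVA-pulsed (dark) cells, with whiskers for ± 1 SE. Gm5416 is highest at 2.52 and 2.78, and 2010005H15Rik (0.46 and 0.62) and BC117090 (-0.05 and 0.50) lie below the listed genes.

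The sequence before the start sites was read from RefSeq promoters of GRCm38.p6, 250 bases before to 50 after each start, which hold all 6 genes. The longest string that all 6 genes share within 100 bases before the start has 12 letters, ACCTTTAAAACC, and it was looked for after the promoters had been read. Counted on both strands, it was present in 6 of 6 promoters and in 11 of all 32817 promoters (0.0335%), 9 of those 11 inside the stefin A run. Its first base lay 32 bases before the RefSeq start of Stfa2, 33 before Stfa1, 34 before Stfa3, 36 before Stfa2l1, 12 before BC100530 and 80 before Gm5416. GENCODE places the starts of Stfa2, Stfa1 and BC100530 farther upstream, so that the string lies inside these genes as annotated there. The 100 bases before the start are printed for the 3 genes where no annotated exon overlaps them, with the string in capitals, to show where it lies.
Stfa2l1, chr16:36156711-36156810, plus strand: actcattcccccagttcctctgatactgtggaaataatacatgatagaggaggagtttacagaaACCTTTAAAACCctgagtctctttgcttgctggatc
Gm5416, chr16:36210303-36210402, plus strand: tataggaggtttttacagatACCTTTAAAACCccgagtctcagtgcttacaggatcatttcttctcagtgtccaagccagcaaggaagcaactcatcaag
Stfa3, chr16:36455393-36455492, minus strand: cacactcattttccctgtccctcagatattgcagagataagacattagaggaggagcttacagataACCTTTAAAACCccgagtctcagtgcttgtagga

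The string was also present before Gm5483 and Gm7260, and it was not found in the listed promoter of 2010005H15Rik. For BC117090 no promoter was listed, so the string could not be looked for there. The promoters of close copies resemble each other along their whole length, with 90.5% of aligned bases identical between Stfa2 and Stfa2l1, and a string of 13 letters is shared by all 6 genes farther up. An interferon-stimulated response element, searched as GAAA, 2 free bases and GAAA again, was found in 0 of the 6 promoters and 3.43% of all promoters. A C/EBP motif written TTGCNNAA was found in 3 of 6, those of Stfa1, BC100530 and Gm5416, and 10.8% of all promoters. An AP-1 motif written TGANTCA was found in the window of Stfa3 alone of the 6, 29 bases after its start, and in 7.81% of all promoters. These are matches of letters in short windows, and no binding was measured.

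To see whether the line difference ended at the run, the genes within 500 kb of it were listed. Outside the run 21 genes were tested, of which 13 were higher and 0 lower in unpulsed EKO-labelled cells, and 11 higher and 0 lower with OVA. Over all tested genes 24.5% were higher and 21.9% lower without OVA, and 25.1% and 21.9% with OVA. On the side of Stfa2l1 the nearest tested genes were Ccdc58, Fam162a and Wdr5b. Ccdc58 (log2 fold change 0.07, SE 0.06, adjusted p = 0.333, edgeR) and Wdr5b (-0.09, SE 0.10, adjusted p = 0.492) did not pass with OVA, and Fam162a did (0.40, SE 0.08, adjusted p = 0.00281).

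On the side of Stfa3 the nearest were Casr, the calcium-sensing receptor, Cd86, a co-stimulator of T cells, and Ildr1. All 3 were higher in OVA-pulsed EKO-labelled cells, Casr with a log2 fold change of 1.08 (SE 0.17, adjusted p = 0.000531, edgeR), Cd86 with 0.80 (SE 0.07, adjusted p = 5.29e-06) and Ildr1 with 2.13 (SE 0.14, adjusted p = 7.77e-07). Ildr1 stood at 1.89, 1.57 and 2.06 CPM in CtrV and 7.17, 8.20 and 8.86 CPM in EKO-labelled cells with OVA. Parp14, Dtx3l and Parp9, interferon-inducible genes farther out on the other side and named after their values were seen, had 1.35, 1.07 and 1.02 with OVA (SE 0.19, 0.14 and 0.12). Genes that did not pass, Ccdc58, Wdr5b and Kpna1, lay between these and the run, and so did Fam162a, which passed.

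**Figure D4:**
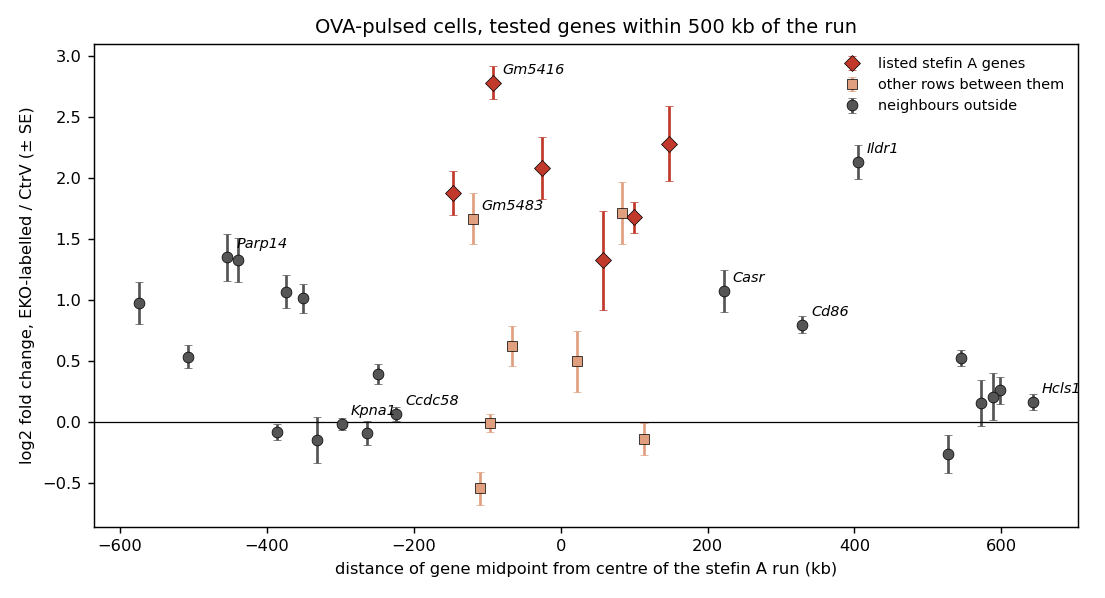
Log2 fold change of OVA-pulsed EKO-labelled against CtrV cells (vertical axis, whiskers ± 1 SE) by the distance of each gene's midpoint from the centre of the stefin A run in kb, for tested genes within 500 kb of the run. Diamonds are the 6 stefin A genes, squares the other rows between them and circles the neighbours, of which Ildr1 (2.13) is highest and Kpna1 (-0.01) and Ccdc58 (0.07) are near 0.

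The genes whose pattern over the 12 libraries was most like that of the summed stefin A count were Rnf130, Taf4b, Tnfrsf23, Crisp3 and Ildr1. Likeness was measured as the root mean square difference of centred log2 CPM, which was 0.101 for Rnf130 and 0.145 for Ildr1. Before the logarithm 1 CPM was added, which shrinks the differences of genes at a low level. Tnfrsf23 and Ildr1 had means of 3.79 and 4.92 CPM, so their likeness depends on this addition. Rnf130, a RING finger gene on chromosome 11, was measured at 21.8 to 31.3 CPM in the CtrV libraries and 82.3 to 91.3 CPM in the EKO-labelled libraries. All 5 had a log2 fold change between the lines of 1.68 to 2.28 without OVA and 1.71 to 2.21 with OVA. With each pattern also scaled to unit SD, so that the size of the change no longer counted, the 5 genes were Rnf130, Heatr3, Entpd4, Pam and Epb41l3. Rnf130 alone was in both lists.

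Stefins act on papain-like cathepsins, so these were described beside the inhibitors. Of 10 cathepsins 8 were tested, and in each condition 4 rose and 2 fell in EKO-labelled cells. Among all tested genes 24.5% rose and 21.9% fell without OVA, and 25.1% and 21.9% with OVA. Ctsl, which encodes cathepsin L, rose from 4.68 ± 1.03 to 13.8 ± 1.54 CPM with OVA (SD, n = 3; log2 fold change 1.58, SE 0.13; adjusted p = 3.95e-06, edgeR). Ctsc (log2 fold change 0.41, SE 0.06), Ctss (0.34, SE 0.08), the cathepsin of class II invariant chain processing, and Ctso (0.19, SE 0.06) rose less. Ctsh, an aminopeptidase, fell from 366 ± 20.8 to 206 ± 8.05 CPM (log2 fold change -0.83, SE 0.05; adjusted p = 6.43e-07, edgeR) and Ctsf had -0.64 (SE 0.20). Ctsf met the filter through CtrV libraries alone, since its highest EKO-labelled library had 0.889 CPM, so no p is given for it. Ctsb and Ctsz did not pass in either condition. With OVA the calls of Ctsf and Ctso were both lost under DESeq2 and without either CtrV R2 or EKO-labelled R2, so that 4 of the 8 were left. Ctsf was also lost without CtrV R1, and Ctso without CtrV R3 or EKO-labelled R1 of the OVA-pulsed cells and with no filter on low counts. Without OVA the call of Ctss was lost under 9 of 21 alternatives, and leaving out single libraries left 5 to 6 calls. The median of the 8 was 0.15 with OVA.

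Of 16 other cystatins 2 passed the filter, and neither rose. Cst3 fell from 6425 ± 198 to 3175 ± 79.6 CPM with OVA (SD, n = 3; log2 fold change -1.02, SE 0.05; adjusted p = 1.24e-07, edgeR) and from 6525 ± 336 to 3249 ± 35.8 CPM without. Per kb of exon, Cst3 stood at 5154 ± 265 and Stfa2 at 877 ± 142 CPM per kb in unpulsed CtrV cells, and at 2567 ± 28.3 and 2711 ± 205 in unpulsed EKO-labelled cells, where the difference was smaller than the SD of Stfa2. Cstb, which encodes stefin B, stood at 40.4 ± 2.02 and 38.0 ± 1.51 CPM with OVA (log2 fold change -0.09, SE 0.07; adjusted p = 0.300, edgeR) and fell by 0.21 on the log2 scale without OVA (SE 0.07, adjusted p = 0.0256). That call for Cstb was lost without the replicate block and without CtrV R3 or EKO-labelled R3 of the unpulsed cells.

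Of 12 class II presentation genes 4 rose and 6 fell in OVA-pulsed EKO-labelled cells, with a median log2 fold change of -0.17. H2-DMb1 (0.71, SE 0.06), H2-Ab1 (0.52, SE 0.05) and H2-Aa (0.49, SE 0.06) rose most, and Ifi30 (-0.72, SE 0.21), which encodes a lysosomal thiol reductase, Ciita (-0.50, SE 0.09), the class II transactivator, and H2-DMb2 (-0.41, SE 0.08) fell most (each passed, edgeR). Without OVA 4 rose and 5 fell. Among all tested genes 25.1% rose and 21.9% fell with OVA, and 24.5% and 21.9% without OVA. The call of Ifi30 was lost without any 1 of CtrV R2, CtrV R3, EKO-labelled R2 and EKO-labelled R3 of the OVA-pulsed cells.

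**Figure D5:**
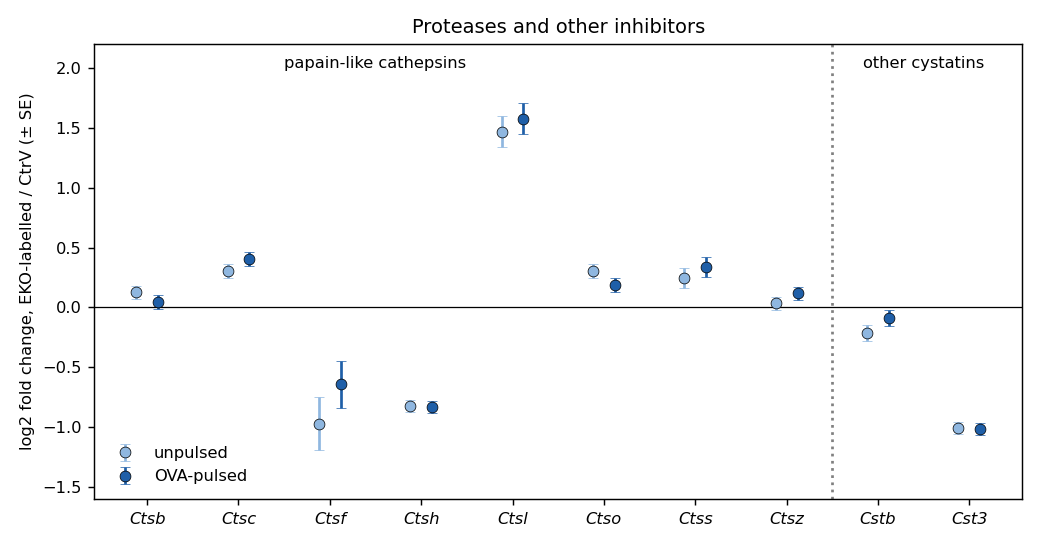
Log2 fold change of EKO-labelled against CtrV cells (vertical axis) for the tested papain-like cathepsins, left of the dotted line, and other cystatins, in unpulsed (light) and OVA-pulsed (dark) cells, with whiskers for ± 1 SE. Ctsl is highest at 1.58 with OVA, and Ctsh (-0.83) and Cst3 (-1.02) are lowest.

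Stefin A transcripts are abundant in neutrophils, so markers of other cell types were examined beside them. Of 11 neutrophil markers 1 passed the filter, and S100a8, S100a9, Ly6g and Elane had 0 counts in all 12 libraries. The summed level of the list was 0.423 to 1.13 CPM in CtrV and 3.51 to 9.75 CPM in EKO-labelled libraries. It was carried by Lcn2, which encodes lipocalin 2, a siderophore-binding protein that neutrophils store. Lcn2 had a log2 fold change of 3.89 (SE 0.41) without OVA and 3.74 (SE 0.38) with OVA. It met the filter through EKO-labelled libraries alone, since its highest CtrV library had 0.865 CPM, so no p is given. The untested Ltf had lower means in EKO-labelled than in CtrV cells, with overlap of the libraries. They were 0.132 against 0.244 CPM without OVA and 0.108 against 0.260 CPM with OVA. Lcn2 was highest in EKO-labelled R1, at 8.32 CPM without OVA and 9.60 CPM with OVA. Stfa1, Stfa2l1, Gm5416 and BC100530 were also highest in R1 in both conditions, and Stfa3 without OVA alone. Stfa2 and the summed count were highest in R1 without OVA but lowest in it with OVA (1111 and 1176 CPM).

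Keratinocyte markers had 0 counts in all 12 libraries, and the summed mast cell and basophil list did not exceed 0.0344 CPM. The T cell list reached 0.184 CPM and the B cell list 1.07 CPM, in both cases in EKO-labelled libraries. Of 5 macrophage markers 4 were tested, Vsig4 being at 0 in all libraries, and 2 were higher in each condition. Of all tested genes 24.5% were higher without OVA and 25.1% with OVA. The summed macrophage list was 930 to 1086 CPM in CtrV and 1290 to 1451 CPM in EKO-labelled libraries, so it was higher in the same line as the stefin A genes. C1qa rose from 297 ± 20.4 to 613 ± 38.1 CPM with OVA (SD, n = 3), whereas Adgre1 stood at 647 ± 51.6 and 634 ± 47.5 CPM. The part of these cell states in the stefin A values was not tested.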

How the data were processed

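RNA-seq of 12 libraries was analysed, 3 in each of 4 groups, grouped by the sample labels. The authors aligned reads to mm10 with STAR, reported 1 location for equally good hits, counted 5′ ends over exon unions with featureCounts and an Ensembl gene model, and deposited raw counts per gene, without normalization or filter. From these counts CPM were computed with TMM factors in edgeR 4.0.16 (R 4.3.3). Genes with log2 CPM above 0 in at least 2 libraries were tested with the quasi-likelihood test over all 12 libraries, with group and replicate number as covariates as in the study's methods, with p adjusted by Benjamini-Hochberg over every tested gene (adjusted p under 0.05, no fold limit, since these limits are blank in the methods). The SE is the log2 fold change divided by the square root of F. The steps were tested on simulated counts. Alternatives were RLE and upper-quartile normalization, DESeq2 1.42.0, limma voom 3.58.1, other filters and thresholds, no block, fewer libraries and leaving out each library.

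The replicate number is a block as in the study's methods. Deviations of same-numbered libraries from their group means had correlations, in the order R1 to R3, of 0.06, -0.01 and 0.26 between the lines without OVA, 0.45, 0.29 and 0.29 between the lines with OVA, 0.08, 0.18 and 0.37 between conditions in CtrV and 0.71, 0.35 and 0.41 between conditions in EKO-labelled cells. The labels do not say how separate the cultures were, so p-values measure the spread between these libraries, which may be technical. No replicates agreed within sampling noise. The smallest level taken as seen was 3 counts. A library's total bounds counting error alone.

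Symbols, exon lengths and positions come from GENCODE M21 on GRCm38, which is not the annotation used for counting, and promoters from RefSeq on GRCm38.p6. The 6 genes, the gene lists and the tests were chosen with earlier results of these data known. Named are the 6 genes, Siglece, list genes that passed with OVA (beyond 6, the 3 largest rises and falls), the 3 nearest tested neighbours on each side and the 5 most alike genes. Other named genes were chosen after their values were seen.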

Additional observations from a re-analysis of the deposited data

How the results depend on the processing

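All 6 stefin A genes remained higher in EKO-labelled cells under each alternative that gave a value for them, and 0 were called for pulsing or the interaction under any. The number called was 4 to 6 in either condition. With at least 10 counts in every library Stfa3 and BC100530 were not tested, and BC100530 missed the threshold with OVA under DESeq2, without the replicate block, at an adjusted p under 0.01 and without 1 of 3 OVA-pulsed libraries (CtrV R1, CtrV R2, EKO-labelled R2). BC100530 dropped below the filter without either EKO-labelled R1 library and with only the 6 libraries compared, as did Stfa3 in the latter case without OVA. Without the replicate block the summed log2 fold change was 1.64 without OVA and 1.69 with OVA, and the number of other cystatins called without OVA was 1 in place of 2.

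The number of other cystatins called without OVA was also 1 with only the 6 libraries compared, and 1 to 2 when single libraries were left out. With no filter on low counts it was 3 in place of 1 with OVA, and 5 in place of 3 other stefin A-like genes were called without OVA. The sum over 10 genes of the run, added after the data were seen, had a log2 fold change of 1.26 without OVA and 1.37 with OVA, since it includes 2010005H15Rik. Leaving out single libraries, the summed log2 fold change of the 6 genes was 1.48 to 1.79 without OVA and 1.56 to 1.78 with OVA. The causes of these changes were not tested beyond the construction of each alternative. Depth limited Stfa3 and BC100530, which had 2 to 45 counts in a library.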
